A study of Mus musculus with 8 samples.

Results

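The 10 genes described here encode plasma proteins of clotting and clot removal that the liver makes. They are the 3 chains of fibrinogen (Fga, Fgb and Fgg), the clotting factors F2, F7, F9 and F10, the anticoagulants Serpinc1 and Proc, and Plg, the precursor of plasmin. They were taken by name, and every probe set that the platform annotation of the Affymetrix mouse array assigns to 1 of these genes only was used, which gave 12 of the 45101 probe sets on the array. F10 had 3 probe sets and each other gene had 1, and 0 probe sets named a member together with another gene.

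The study measured RNA from whole cell suspensions of bone marrow and fetal liver, in mice with and without Col18a1, the gene of collagen XVIII, a basement membrane collagen. All mice carried the C57B6/J background. Bone marrow was flushed from the femur and tibia of 3 months-old males, either Col18a1+/+ (wild-type) or Col18a1-/- (knockout), and fetal liver came from embryos at day 14.5 of the same 2 genotypes, with sex undetermined. Each of the 4 groups had 2 arrays, each array held RNA from 2 pooled littermates, and the knockout was present in every cell of the mouse, so effects of the loss in liver cells and in blood cells cannot be told apart. The p-values measure the spread between such pools, and the tissue comparison also sets embryos against adults.

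Hepatocytes, and in the embryo the hepatoblasts that precede them, secrete most of the clotting proteins of plasma. Prothrombin (F2) and factors VII, IX and X are proenzymes that need vitamin K-dependent carboxylation, and they end in thrombin, which turns fibrinogen into fibrin. Antithrombin (Serpinc1) and protein C (Proc) restrain that cascade, and plasmin dissolves the fibrin. At mid-gestation the fetal liver is also the main site of blood formation, so both tissues of the study are rich in blood cells and only the liver holds hepatoblasts.

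Start-site sequences of 8 of the 10 genes, all but Plg and Proc, were matched by symbol (RefSeq, GRCm38.p6, 250 bases before the transcript start to 50 bases after it). Those of 5 genes are printed because they lie side by side in 2 sets of members, 1 with large and 1 with smaller tissue differences. Fgg, Fga and Fgb are consecutive protein-coding genes on chromosome 3. F7 and F10 are neighbours on chromosome 8, followed by Proz, a vitamin K-dependent cofactor of a factor X inhibitor. Proz is not a member, and its tissue difference was larger than theirs (log2 difference 5.31 in wild-type). Fga is chr3:83025903-83026202 (plus strand), Fgb is chr3:83049814-83050113 (minus strand), Fgg is chr3:83007474-83007773 (plus strand), F7 is chr8:13025784-13026083 (plus strand) and F10 is chr8:13037058-13037357 (plus strand). Each sequence runs 5′ to 3′ on the gene's strand, and capitals mark every match, on either strand, to 1 of 5 short motifs of liver regulators described after the sequences.
Fga: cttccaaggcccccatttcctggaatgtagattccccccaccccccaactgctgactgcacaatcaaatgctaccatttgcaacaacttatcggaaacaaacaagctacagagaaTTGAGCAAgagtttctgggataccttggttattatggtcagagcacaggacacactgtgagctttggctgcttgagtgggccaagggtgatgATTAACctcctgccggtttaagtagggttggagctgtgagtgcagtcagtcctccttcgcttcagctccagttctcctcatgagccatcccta
Fgb: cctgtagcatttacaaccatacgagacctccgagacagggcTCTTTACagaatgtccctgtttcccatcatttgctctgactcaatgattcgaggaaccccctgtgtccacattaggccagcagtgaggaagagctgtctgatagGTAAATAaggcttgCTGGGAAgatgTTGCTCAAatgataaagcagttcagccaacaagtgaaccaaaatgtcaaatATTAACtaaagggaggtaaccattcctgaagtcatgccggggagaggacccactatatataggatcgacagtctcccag
Fgg: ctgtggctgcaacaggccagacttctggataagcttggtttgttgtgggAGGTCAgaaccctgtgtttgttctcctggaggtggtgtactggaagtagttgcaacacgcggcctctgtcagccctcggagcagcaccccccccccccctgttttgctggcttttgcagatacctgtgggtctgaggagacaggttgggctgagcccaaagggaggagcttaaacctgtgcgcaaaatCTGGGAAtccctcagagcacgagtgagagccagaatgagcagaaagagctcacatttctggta
F7: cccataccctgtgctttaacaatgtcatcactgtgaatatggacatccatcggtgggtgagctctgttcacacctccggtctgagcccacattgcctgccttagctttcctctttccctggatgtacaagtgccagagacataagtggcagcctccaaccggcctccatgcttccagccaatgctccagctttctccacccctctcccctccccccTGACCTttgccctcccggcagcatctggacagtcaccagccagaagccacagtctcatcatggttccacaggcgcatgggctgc
F10: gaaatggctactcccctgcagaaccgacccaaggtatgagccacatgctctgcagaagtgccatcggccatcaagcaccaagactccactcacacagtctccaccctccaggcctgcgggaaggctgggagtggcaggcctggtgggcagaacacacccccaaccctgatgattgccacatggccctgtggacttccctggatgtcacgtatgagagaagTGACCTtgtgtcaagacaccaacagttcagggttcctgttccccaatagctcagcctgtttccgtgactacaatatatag

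The motifs searched were an HNF1 element (GTTAAT), a nuclear receptor element of the kind HNF4 binds (AGGTCA), a C/EBP motif (TTGCNNAA), a FOXA motif (TNTTTAC) and an interleukin-6 response motif (CTGGGAA), and the matches of different motifs did not overlap. The nuclear receptor element stood in 5 of the 8 member promoters (F2, F7, F9, F10 and Fgg), and in 16.3% of 32851 promoters of the same length. In F2, F7 and F10 it read TGACCT on the gene's strand and began at -33, -34 and -30 from the start site. In F9 and Fgg it read AGGTCA and began at -5 and -201. How many of all promoters hold TGACCT at such a position was not counted. The HNF1 element was found in F2, Fga and Fgb, against 7.1% of all promoters. It began at -43 in Fga, at -29 in Fgb and at +9, after the start site, in F2. C/EBP matches lay in F9, Fga, Fgb and Serpinc1 (10.8% of all promoters) and FOXA matches in Fgb and Serpinc1 (12.4%). The interleukin-6 response motif, of the kind STAT3 binds, was present in F9, Fgb and Fgg (11.1%). A match describes letters in this window and was not tested as a binding site.

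Values are log2 of the deposited array intensity, and a difference of 1 on that scale is a doubling. A difference was called at a Benjamini-Hochberg adjusted p under 0.05 in limma, two-sided, over all 45101 probe sets, and the tables gave no detection call, so a low value is not an absence. Array medians ran from 5.35 to 5.41, and arrays of 1 group correlated at 0.993 to 0.997 over all probe sets. The probe set of Col18a1 averaged 7.85 in wild-type bone marrow and 5.81 in that of knockouts (difference -2.03, limma adjusted p = 0.00268), and 9.12 and 8.12 in fetal liver (difference -1.003, adjusted p = 0.0546). Whether it lies in the deleted segment is not known here. Xist, the transcript of the inactive X chromosome, read 11.04 and 11.22 on the wild-type fetal liver arrays and 4.61 to 5.03 on the other 6, while the Y-linked Eif2s3y read 3.29 and 3.003 on those 2 arrays and 9.38 to 10.03 elsewhere. Genotype and sex-linked expression therefore cannot be told apart in fetal liver, and the wild-type tissue comparison crosses the same line, whereas the knockout tissue comparison does not.

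In fetal liver all 10 genes, by all 12 probe sets, were higher than in bone marrow, in both genotypes. The background is 21.5% of all probe sets called higher in fetal liver in wild-type and 19.7% in knockout. The members' median difference, with the brightest probe set standing for F10, was 6.90 in wild-type and 7.26 in knockout, beside medians of 0.13 and 0.10 over 18194 genes. The gap from the highest bone marrow array to the lowest fetal liver array ran from 1.20 for the dimmest F10 probe set to 7.83 for Plg. How many of all probe sets separate the tissues in this way was not counted. In limma, adjusted p ran from 5.8e-10 to 0.000107 in wild-type and from 5.27e-10 to 0.000224 in knockout. All 14 measured hepatocyte markers were likewise higher in fetal liver (median difference 8.44 in wild-type). Their summed intensity was 301.6 to 343.5 over the bone marrow arrays and 113900 to 123400 over the fetal liver arrays. In bulk RNA, fewer cells of a type and less RNA per cell cannot be told apart.

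**Figure D1:**
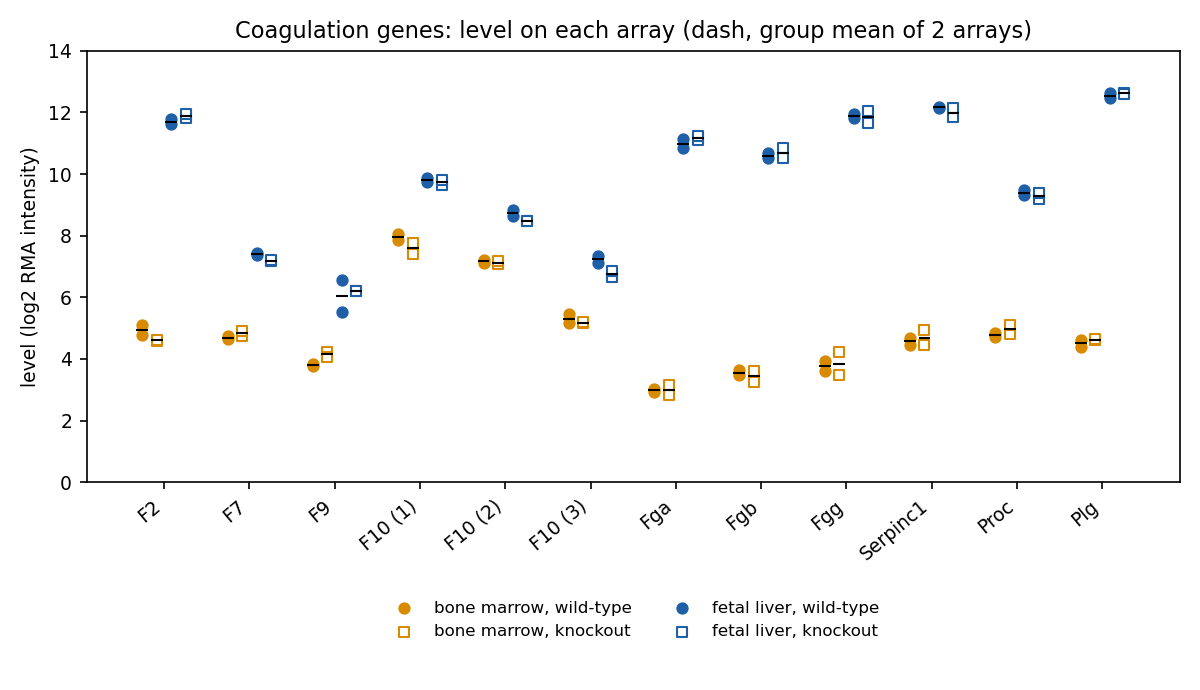
Log2 intensity (y axis) of each of the 12 probe sets (x axis) on each of the 8 arrays, with 1 point per array and colours for the 4 groups. F10 (1), (2) and (3) are its probe sets from brightest to dimmest. The fetal liver points of every probe set lie above its bone marrow points, by the widest margin for Plg and the narrowest for the dimmest F10 probe set.

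Among the fibrinogen chains, Fga (the alpha chain) read 2.93 and 3.03 on the wild-type bone marrow arrays, 2.82 and 3.14 on the knockout ones, 10.86 and 11.12 in wild-type fetal liver and 11.10 and 11.22 in knockout fetal liver. Its tissue difference was 8.004 ± 0.15 (SE, 257-fold, 95% interval 7.68 to 8.33) in wild-type and 8.18 (290-fold) in knockout. The 4 arrays of each tissue sat close together, and genotype did not order them. Fgb, the beta chain, read 3.48, 3.64, 3.27 and 3.60 in bone marrow (wild-type arrays, then knockout) and 10.52, 10.69, 10.51 and 10.85 in fetal liver. That was a difference of 7.04 ± 0.16 (132-fold, 6.68 to 7.40) in wild-type and 7.25 (152-fold) in knockout. Fgg, the gamma chain, read 3.60, 3.93, 4.22 and 3.47 in bone marrow and 11.82, 11.96, 11.66 and 12.04 in fetal liver, or 8.13 ± 0.24 (280-fold, 7.60 to 8.67) and 8.001 (256-fold). All 3 neighbouring chain genes rose by more than 7 log2 units in both genotypes, and the wild-type interval of Fgb lay below those of Fga and Fgg, whose intervals overlapped.

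The vitamin K-dependent clotting factors split into 1 large and 3 smaller differences. F2, prothrombin, read 4.79, 5.12, 4.59 and 4.63 in bone marrow and 11.62, 11.78, 11.81 and 11.94 in fetal liver, a difference of 6.75 ± 0.14 (107.5-fold, 6.44 to 7.05) in wild-type and 7.27 (154-fold) in knockout. Its interval overlapped that of Fgb. F7, the factor that tissue factor binds to start clotting, read 4.74, 4.64, 4.76 and 4.89 in bone marrow and 7.44, 7.38, 7.18 and 7.21 in fetal liver. Its difference was 2.72 ± 0.11 (6.60-fold, 2.48 to 2.97) in wild-type and 2.37 (5.15-fold) in knockout. The genotype test did not call F7 in fetal liver (-0.22, limma adjusted p = 0.361).

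F9, the X-linked factor missing in hemophilia B, read 3.77, 3.83, 4.23 and 4.08 in bone marrow and 5.53, 6.57, 6.20 and 6.21 in fetal liver. The wild-type fetal liver pools were 1.03 apart (SD 0.73, n = 2), the widest replicate gap of any member, and the knockout pools lay between them. The difference was 2.25 ± 0.27 (4.76-fold, 1.65 to 2.85) in wild-type, where it ran from 1.74 to 2.77 when 1 array was left out, and 2.05 (4.13-fold) in knockout.

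F10, the protease that cuts prothrombin, was measured by 3 probe sets. The brightest (1449305_at) read 8.06, 7.87, 7.42 and 7.77 in bone marrow and 9.73, 9.86, 9.64 and 9.81 in fetal liver, a difference of 1.83 ± 0.15 (3.57-fold, 1.51 to 2.16) in wild-type and 2.13 (4.38-fold) in knockout. The second (1418993_s_at) read 7.13, 7.21, 7.06 and 7.19 in bone marrow and 8.83, 8.65, 8.47 and 8.47 in fetal liver, or 1.57 (2.98-fold) and 1.35 (2.54-fold). The dimmest (1418992_at) read 5.45, 5.16, 5.16 and 5.21 in bone marrow and 7.11, 7.35, 6.65 and 6.85 in fetal liver, or 1.93 (3.80-fold) and 1.57 (2.97-fold). The 3 probe sets gave the same direction and overlapping wild-type intervals, and the brightest was already well above the array medians in bone marrow. The wild-type interval of F9 overlapped those of F7 and F10, while those of F7 and the brightest F10 probe set did not overlap.

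Serpinc1, antithrombin, read 4.68, 4.45, 4.44 and 4.94 in bone marrow and 12.14, 12.18, 11.84 and 12.13 in fetal liver. The difference was 7.59 ± 0.18 (193-fold, 7.19 to 7.99) in wild-type and 7.29 (157-fold) in knockout, and its interval overlapped those of Fga, Fgg, Plg and Fgb. Proc, protein C, read 4.71, 4.85, 4.81 and 5.11 in bone marrow and 9.33, 9.47, 9.20 and 9.39 in fetal liver. At 4.62 ± 0.14 (24.6-fold, 4.31 to 4.93) in wild-type and 4.34 (20.2-fold) in knockout, its interval overlapped that of no other member.

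Plg, plasminogen, read 4.63, 4.39, 4.62 and 4.64 in bone marrow and 12.47, 12.62, 12.63 and 12.61 in fetal liver. Its difference of 8.03 ± 0.12 (262-fold, 7.76 to 8.30) in wild-type and 7.99 (254-fold) in knockout had the lowest adjusted p of the members in both genotypes. By the size of the wild-type difference the order was Fgg, Plg, Fga, Serpinc1, Fgb, F2, Proc, F7, F9 and F10. Among all 45101 probe sets ranked by that difference, Fgg stood at 27, Plg at 30 and Fga at 31, and the F10 probe sets between 1072 and 1533. RMA, the method that made the intensities, compresses differences of dim probe sets, so folds measured from bone marrow values near 3 to 5, which lie below the array medians and have no detection call, may understate the change. The order is thus that of the measured differences only.

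RNA quality differed along with the tissue. The log2 ratio of 3′ to 5′ Gapdh control probe sets was 0.48 to 0.78 on the bone marrow arrays and 1.33 to 1.86 on the fetal liver arrays, and its part in the tissue differences was not tested. Markers of other cells also differed in wild-type: 10 of 12 stellate and mesenchymal, 8 of 10 endothelial and 6 of 7 biliary and epithelial markers were higher in fetal liver. Over all 18194 genes, 28.7% were called higher there and 18.3% lower. The 11 neutrophil and 8 B lineage markers were all lower in fetal liver, as were 7 of 11 megakaryocyte and platelet markers. Erythroid markers (3 higher and 1 lower of 10) and macrophage markers (4 higher and 3 lower of 12) were mixed. In knockout, megakaryocyte and platelet markers were 3 higher and 1 lower of 11. The part of these other cells in the tissue differences was not tested.

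Between genotypes none of the 10 genes passed the test, in fetal liver or in bone marrow. In fetal liver limma called 0 of the 12 member probe sets, against a background of 0.0554% of all probe sets, and 2 had an unadjusted p under 0.05, against 16% of all. The median difference, knockout minus wild-type, was 0.01 (all probe sets -0.002), the genes ran from -0.22 (F7) to 0.18 (F2), and adjusted p ran from 0.177 to 0.949. The 2 were F10 probe sets: the dimmest fell by 0.48 ± 0.14 (95% interval -0.80 to -0.16, limma adjusted p = 0.177), and the second was at -0.27 (-0.53 to -0.01, adjusted p = 0.293). The brightest F10 probe set was at -0.07 (-0.40 to 0.26), and the intervals of the 3 probe sets of this gene overlapped. For the other genes the 95% intervals were -0.16 to 0.50 for Fga, -0.28 to 0.44 for Fgb, -0.58 to 0.49 for Fgg, -0.13 to 0.48 for F2, -0.46 to 0.03 for F7, -0.58 to 0.23 for Serpinc1, -0.42 to 0.21 for Proc and -0.20 to 0.34 for Plg. These bounds leave room for changes of less than a doubling or halving in fetal liver. F9 was at 0.15 (-0.45 to 0.75), and leaving out 1 array moved it between -0.37 and 0.67, with either direction depending on which wild-type pool was kept. F9 is X-linked, and the sex-linked difference between these arrays cannot be told apart from genotype. Beside these values, 0 of the 14 hepatocyte markers were called by limma (0 at an unadjusted p under 0.05), and their summed intensity was 113900 to 119500 in wild-type and 118000 to 123400 in knockout fetal liver. The Gapdh 3′ to 5′ ratio was 1.33 and 1.66 in wild-type and 1.86 and 1.62 in knockout fetal liver, and its part was not tested.

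In bone marrow, where levels of most members were low, limma again called 0 of 12, against 0.109% of all probe sets, and 2 had an unadjusted p under 0.05, against 4.3%. These were F2 (-0.34, -0.65 to -0.04) and the brightest F10 probe set (-0.37, -0.70 to -0.04), each with an adjusted p of 1. The median difference was 0.10 (all probe sets 0.01), and the range ran from -0.37 for F10 to 0.36 for F9. All 4 bone marrow arrays are labelled male, so the sex-linked split of fetal liver was not present there.

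The test of the difference between tissues in the genotype effect (fetal liver minus bone marrow) called 0 of 12 in limma, against 0.0288% of all probe sets, and 2 had an unadjusted p under 0.05, against 10.7%. F2 was at 0.52 ± 0.19 (adjusted p = 0.404) and F7 at -0.36 ± 0.15 (adjusted p = 0.449), in opposite directions. The members' median was -0.09, beside -0.01 over all probe sets.

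**Figure D2:**
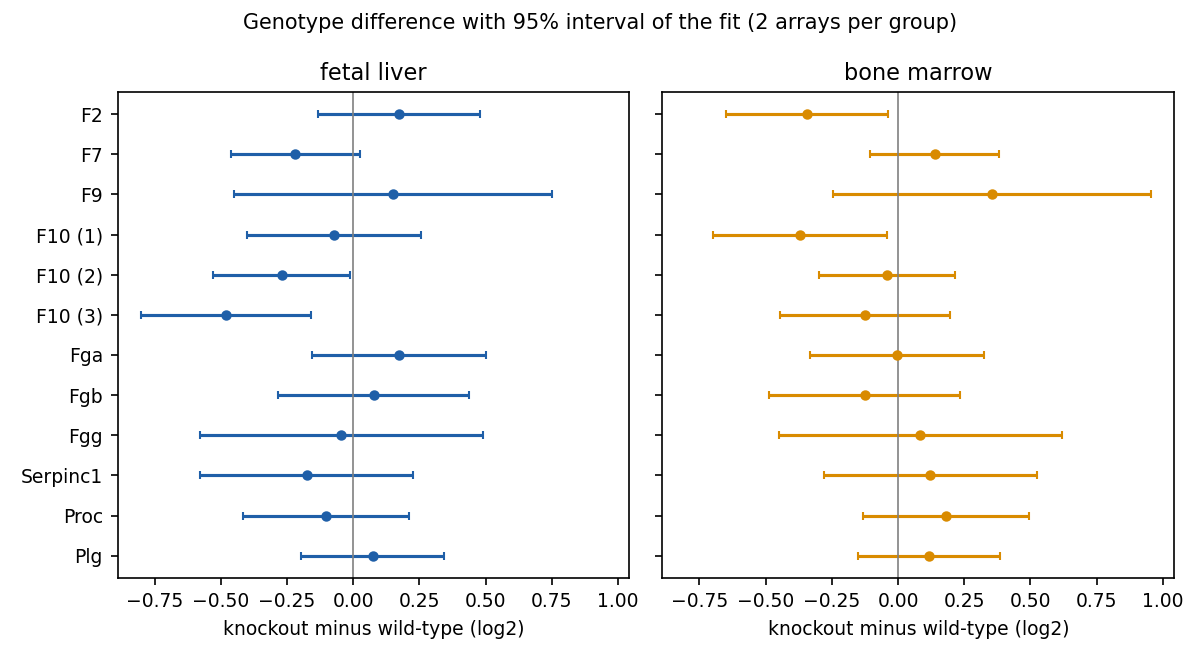
Difference between knockout and wild-type (log2, x axis) with its 95% interval for each of the 12 probe sets, in fetal liver and bone marrow. F10 (1), (2) and (3) run from the brightest to the dimmest probe set. Most intervals cross 0, and the dimmest F10 probe set in fetal liver (-0.80 to -0.16) is the farthest below it.

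Other genes of clotting did not follow the members as a whole. In the wild-type tissue comparison, where 28.7% of 18194 genes were called higher and 18.3% lower in fetal liver, 5 of 10 measured other clotting factors were higher and 2 lower, with a median of 1.39. F13b, the carrier subunit of the fibrin crosslinking enzyme, was higher by 6.49 ± 0.21 (89.6-fold) and Kng1, high molecular weight kininogen, by 6.11 ± 0.22 (69.1-fold). F12 (4.29) and Klkb1 (4.14), which start contact activation, and F11 (2.38) completed the higher ones. F13a1, the catalytic subunit that macrophages and megakaryocytes also make, was lower by a log2 difference of -2.69, and Vwf, made by endothelium and megakaryocytes, by -1.10. F5 (0.01), F8 (0.40) and F3 (0.20) were not called, and the 7 calls were all at an adjusted p of 0.000512 or less in limma. In knockout the same test called 5 higher and 1 lower, and Vwf (0.21, adjusted p = 0.358) was not called.

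Among inhibitors and receptors, 7 of 12 were higher in wild-type fetal liver and 1 was lower, with a median of 1.12. Serpina10, the inhibitor of factor X that works with protein Z, was higher by 6.60 ± 0.20 (96.8-fold), Proz, the neighbour of F10, by 5.31 ± 0.22 (39.6-fold), and Tfpi2 by 4.83 ± 0.15 (28.5-fold). Thrombomodulin (Thbd), the receptor that lets thrombin activate protein C, was lower by a log2 difference of -2.13.

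Fibrinolysis genes were divided, with 3 of 9 higher, 4 lower and a median of -0.19. Serpinf2, the plasmin inhibitor antiplasmin, was higher by 6.48 ± 0.11 (89.3-fold) and A2m, a broad protease trap, by 4.79 ± 0.14 (27.6-fold). Plaur, the receptor of urokinase, was at -2.06, and S100a10, a cell surface plasminogen receptor subunit, at -1.496. Plat was also higher (1.06), Anxa2 (-1.25) and Plgrkt (-0.97) were lower, and Plau (-0.19) and Hrg (0.28) were not called. In knockout Plau, urokinase, was called lower as well (-0.77, limma adjusted p = 0.00698). In the vitamin K cycle and factor secretion, 4 of 6 were higher, with a median of 0.98, while Vkorc1l1 (0.24) and Furin (0.02) were not called. Vkorc1, which recycles vitamin K, differed by 1.71 ± 0.11, Ggcx, the carboxylase itself, by 1.80 ± 0.14, and Mcfd2, a cargo receptor subunit for factors V and VIII, by 1.42 ± 0.12.

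**Figure D3:**
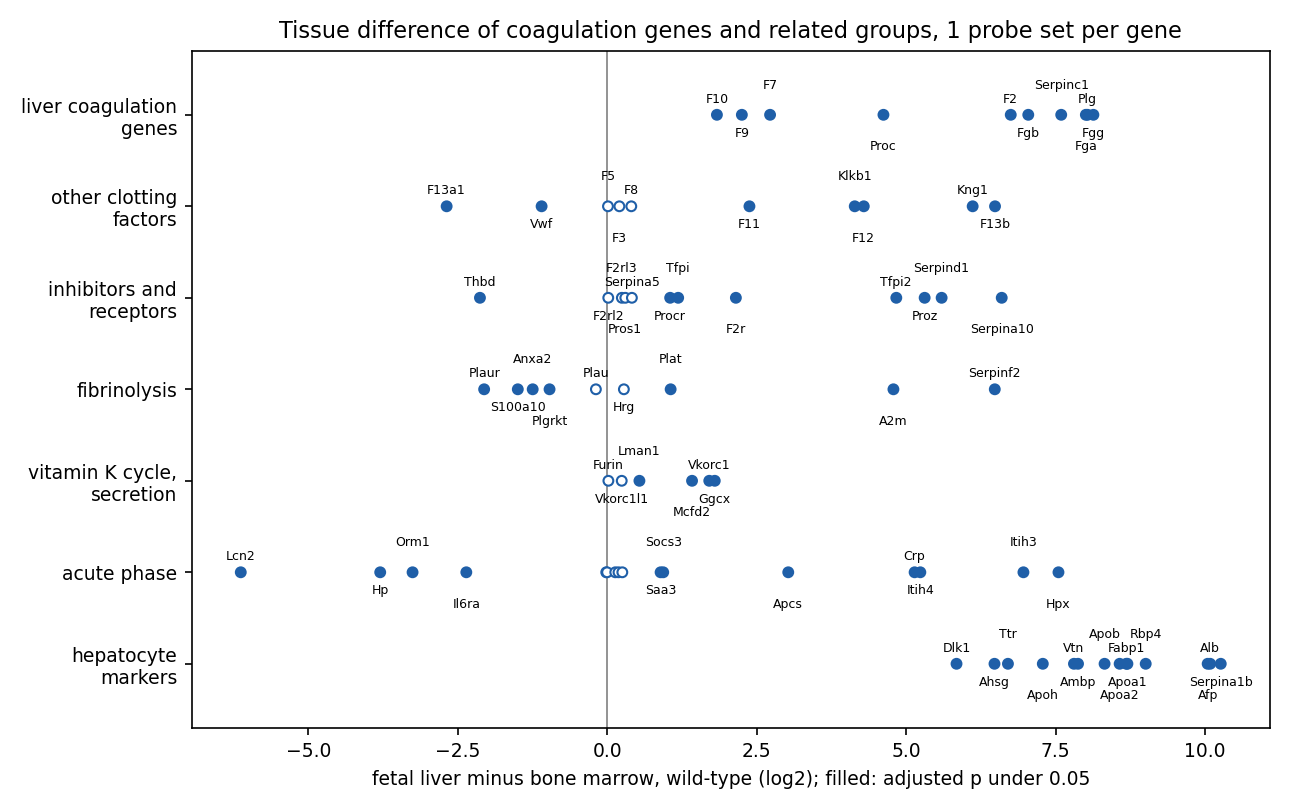
Difference between fetal liver and bone marrow in wild-type (log2, x axis) for each measured gene (1 point per gene) of the members and of 6 other lists, in rows by list. Filled points passed an adjusted p under 0.05 and open points did not, with the open points of the acute phase row left without names. The members lie at 1.83 to 8.13, while the other clotting, receptor and fibrinolysis lists spread on both sides of 0.

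Genotype moved 1 gene of these lists past the threshold. Vwf read 8.75 and 8.30 in wild-type bone marrow and 7.18 and 6.99 in knockout bone marrow, and fell by 1.44 ± 0.17 (limma adjusted p = 0.0259). The call did not hold without BM_WT replicate 1 (difference -1.22, adjusted p = 0.268), without BM_KO replicate 1 (0.319) or BM_KO replicate 2 (0.273), without either knockout fetal liver array (0.0697 each) or in a fit of the bone marrow arrays alone (0.074). In fetal liver Vwf was at -0.13, and the test of the difference between tissues gave 1.31 (limma adjusted p = 0.183). Under 1 alternative variance model, trend and robust, that test called Vwf (adjusted p = 0.039). It includes the fetal liver genotype difference, which cannot be told apart from sex-linked expression. In knockout bone marrow 8 of 11 megakaryocyte and platelet markers were also called lower (median -1.12). Over all probe sets 0.109% were called there in either direction. The part of these markers in the Vwf difference was not tested. For the 37 other clotting, inhibitor, fibrinolysis and vitamin K genes limma called 0 in fetal liver and 1, Vwf, in bone marrow. An unadjusted p under 0.05 was found for 2 of 37 in fetal liver, against 16% of all probe sets, and for 9 of 37 in bone marrow, against 4.3%. These lists take 1 probe set per gene, and the share over all genes on that basis was not computed. Of the 9 in bone marrow, 8 were lower in knockout. Besides Vwf these were Pros1 (-0.58, limma adjusted p = 0.604), protein S, Tfpi2 (-0.54, adjusted p = 0.716), F2r (-0.50), F2rl3 (-0.435), F5 (-0.42), F2rl2 (-0.385) and S100a10 (-0.30). Serpinf2 was higher (0.37). Apart from Vwf none was called. Tfpi2 read 3.88 to 4.67 in bone marrow, below the array medians.

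In the wild-type tissue comparison, liver transcription factors were called higher in fetal liver for 11 of 13 and lower for 2, with a median of 2.28. Over all genes, 28.7% were called higher and 18.3% lower. Foxa3 (4.98 ± 0.15), Prox1 (4.32 ± 0.17) and Foxa1 (3.46 ± 0.15) led them, while Cebpb (-1.05) and Stat3 (-0.47) were lower. In knockout limma called 11 higher and 1 lower, and Stat3 (-0.105, adjusted p = 0.488) was not called. Genes of the acute phase response, listed with the cytokine receptor genes Il6ra and Il6st, were mixed in the wild-type tissue comparison. Of 16, 7 were higher and 4 lower, with a median of 0.22. Il6ra was among the lower ones (-2.36), and Il6st was not called. Hpx, the heme carrier, was higher by 7.55 ± 0.14 and Itih3 by 6.96 ± 0.21, whereas Lcn2, a granule protein of neutrophils as well, was lower (-6.13), as were Hp (-3.80) and Orm1 (-3.26). Between genotypes limma called 0 of these genes in either tissue. Of the 13 transcription factors 4 had an unadjusted p under 0.05 in fetal liver (16% of all probe sets did) and 2 in bone marrow (4.3% of all). Of the 16 acute phase and receptor genes 3 did in fetal liver and 1 in bone marrow. The shares are over all probe sets and were not computed at 1 per gene.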

How the data were processed

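RNA from 8 pools was measured on Affymetrix mouse genome arrays. The deposited table gives 1 linear intensity per probe set and array, which the authors computed with RMA, per the submitters' processing notes. RMA corrects background, normalizes by quantiles and summarises probes, and no version was stated in the sources read. RMA removes shifts common to all genes and compresses dim values. Scanner files were not analysed here.

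Log2 of each intensity was taken here, with no filter on low values, and limma 3.58.1 in R 4.3.3 fitted 1 mean per group over all 8 arrays and all 45101 probe sets, with Benjamini-Hochberg adjustment and 95% intervals from the fit. Tests were two-sided and called at an adjusted p under 0.05. Of the probe sets, 34958 named 1 gene, 932 several and 9211 none here, and the brightest stood for a gene in lists. All 10 members were found in the RefSeq gene table, and promoters came from RefSeq (GRCm38.p6). Named genes were all members, and in other lists those called between genotypes plus up to 4 with the largest moderated t in the wild-type tissue comparison, and the genes most like the members. Other list genes named beside a small count (F11, F13a1, F3, F5, F8, Plat, Anxa2, Plgrkt, Plau, Hrg, Vkorc1l1, Furin, Pros1, F2r, F2rl2, F2rl3, Cebpb, Stat3, Hp, Orm1, Il6ra, Il6st) were chosen after their values were seen. The members and lists were chosen with earlier results of these data known. The fit code was tested on simulated data. The alternatives covered filters, summaries, normalization, variance models, array weights, the replicate block, the arrays fitted, the threshold and leaving out each array. Refits of Vwf under these alternatives were added after seeing the data.

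Same-numbered arrays of the 2 genotypes deviated together little (correlation of deviations 0.012 in bone marrow and 0.023 in fetal liver), so the numbers were not taken to pair the pools. The number of arrays limits the precision.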

Additional observations from a re-analysis of the deposited data

How the results depend on the processing

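Over 19 alternatives, 8 of which left out 1 array, the test of each member probe set kept its direction where called and its side of the threshold in all 5 contrasts. All member features were called higher in fetal liver in both genotypes (adjusted p at most 0.00367, in 10 to 12 features), and 0 were called between genotypes or in the test of the difference between tissues. With the replicate block, 13 probe sets of all were called in fetal liver, 16 in bone marrow and 11 in that difference, and 0 members. Across all features, calls between genotypes moved from 25 to between 9 and 370 in fetal liver, from 49 to between 1 and 125 in bone marrow, and in the difference between tissues from 13 to between 5 and 99 (not fitted with only the arrays compared). With 1 array left out, the members' median ran from 6.77 to 7.02 for the tissue comparison in wild-type, from 7.06 to 7.37 in knockout, from -0.13 to 0.10 between genotypes in fetal liver, from -0.05 to 0.14 between genotypes in bone marrow, both across 0, and from -0.16 to 0.16, also across 0, in the difference between tissues. With 2 arrays per group, changes within the printed intervals are not resolved.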

Other observations

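The genes whose profiles over the 8 arrays, each centred on its own mean, lay nearest to the members' mean profile were Hc, Hsd17b2, Cpn1, Cdkn1c and Mpzl2, among 18194 genes. Their root mean square distances were 0.103, 0.103, 0.103, 0.142 and 0.143 (log2), against 0.614 (Proc) to 1.86 (F10) for the members themselves, since the mean profile lies between the large and the small differences. Hc encodes complement C5 and was higher in fetal liver by 5.89 in wild-type and 5.75 in knockout. Cpn1, the carboxypeptidase of plasma that trims kinins, was higher by 5.77 and 5.46, Hsd17b2, a steroid dehydrogenase, by 5.89 and 5.70, and Cdkn1c, an imprinted inhibitor of the cell cycle, by 5.84 and 5.83. Mpzl2, an adhesion molecule, was higher by 5.56 and 5.51. This is a description over arrays that share 2 tissues, with no test.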
